A study of Mus musculus with 22 samples.

Results

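The mitosis genes examined here are 39 genes that cells express most strongly as they prepare for and pass through division, and they were taken by name from the 17541 genes of the deposited UMI counts. A UMI is a molecular tag that marks 1 captured RNA molecule, and inDrop is a droplet method that gives the RNA of each cell its own barcode. All 39 genes had UMIs and all 39 passed the filter for testing in each comparison, which asked for a UMI in more than 3 cells of any group. They fall into 7 groups by role, namely the cyclin-dependent kinase and its regulators (9 genes), activators of the anaphase promoting complex and the spindle checkpoint (5), the chromosomal passenger complex (3), centromere and kinetochore (5), chromosome structure (5), spindle motors and microtubule binding (10) and cytokinesis (2).

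The epithelium was peeled from the esophagus of C57BL6 mice. The 6 untreated controls were 3 young mice of 3 to 4 months and 3 old mice of 18 to 20 months. The 4 mice with EoE (eosinophilic esophagitis) received MC903, a vitamin D analog, and ovalbumin on the ears and then ovalbumin by mouth until day 32. They were 2 mice of 6 to 8 weeks and 2 of 19 to 20 months. The 3 mice with ESCC (esophageal squamous cell carcinoma), called 8M, 17F and 17M after their labels, drank the carcinogen 4NQO for 16 weeks, went 8 weeks without it and were 8 to 10 months old. No control was 8 to 10 months old, so age and 4NQO cannot be told apart in ESCC. No control was 6 to 8 weeks old either, so age and treatment cannot be told apart in the 2 youngest EoE mice. The labels call the tissue esophageal epithelium and do not say whether dysplastic or tumor areas were taken.

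In the esophagus the epithelium renews itself from dividing cells of the basal layer, which carries keratin 5 (Krt5), and cells stop dividing as they move up and make differentiation proteins such as Krtdap. Entry into mitosis is driven by Cdk1 bound to cyclin B, chromosomes are then condensed and attached to the spindle through kinetochores, and exit begins when the anaphase promoting complex, switched on by Cdc20, marks cyclin B and securin for degradation. Many genes of this program share promoter elements, the CHR bound by the MuvB complex and the CCAAT box bound by NF-Y.

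The shared elements could be read in the promoters themselves. RefSeq windows of 250 bases before to 50 bases after the gene start (GRCm38.p6) were found for 33 of the 39 mitosis genes, in 34 windows. A CHR, searched as TTTGAA or TTCGAA on both strands, stood in 27 of the 34 windows (79.4%) against 19.2% of all 32851 windows. The CCAAT box, searched as CCAAT on both strands, stood in 26 windows (76.5%) against 37.4%, and 23 windows (67.6%) held both against 7.52%. TTCGAA reads the same on both strands, and adjoining matches of the 2 motifs can share 1 base. These matches describe sequence and not binding. The windows of Cdk1 (chr10:69352863-69353162, minus strand), Cdc20 (chr4:118437294-118437593, minus strand), Kif23 (chr9:61946750-61947049, minus strand), Cks1b (chr3:89418242-89418541, minus strand) and Cks2 (chr13:51644982-51645281, plus strand) are shown 5′ to 3′ because the results below turn on these genes, with each CHR and CCAAT box in capitals.
Cdk1: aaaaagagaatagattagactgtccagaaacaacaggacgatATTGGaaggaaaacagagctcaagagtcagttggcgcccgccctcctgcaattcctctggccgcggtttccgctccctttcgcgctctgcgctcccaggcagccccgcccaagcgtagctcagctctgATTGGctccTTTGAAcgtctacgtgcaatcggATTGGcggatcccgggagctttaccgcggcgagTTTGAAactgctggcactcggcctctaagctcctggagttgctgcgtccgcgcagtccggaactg
Cdc20: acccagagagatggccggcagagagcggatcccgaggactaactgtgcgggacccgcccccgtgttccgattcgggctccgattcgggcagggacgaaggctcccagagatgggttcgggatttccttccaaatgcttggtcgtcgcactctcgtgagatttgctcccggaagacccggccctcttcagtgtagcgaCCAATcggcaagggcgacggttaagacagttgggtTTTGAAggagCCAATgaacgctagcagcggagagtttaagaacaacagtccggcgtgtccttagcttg
Kif23: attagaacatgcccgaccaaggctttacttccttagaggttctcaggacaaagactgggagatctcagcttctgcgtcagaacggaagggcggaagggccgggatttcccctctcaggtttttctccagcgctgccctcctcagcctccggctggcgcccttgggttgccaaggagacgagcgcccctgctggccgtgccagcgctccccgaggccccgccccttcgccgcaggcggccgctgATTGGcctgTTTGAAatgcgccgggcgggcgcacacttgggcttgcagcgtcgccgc
Cks1b: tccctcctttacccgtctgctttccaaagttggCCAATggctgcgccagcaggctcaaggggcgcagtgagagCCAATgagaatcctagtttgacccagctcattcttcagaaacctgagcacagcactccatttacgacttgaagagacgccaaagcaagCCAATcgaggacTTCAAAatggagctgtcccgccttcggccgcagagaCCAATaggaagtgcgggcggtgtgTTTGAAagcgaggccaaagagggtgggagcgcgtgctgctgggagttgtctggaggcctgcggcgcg
Cks2: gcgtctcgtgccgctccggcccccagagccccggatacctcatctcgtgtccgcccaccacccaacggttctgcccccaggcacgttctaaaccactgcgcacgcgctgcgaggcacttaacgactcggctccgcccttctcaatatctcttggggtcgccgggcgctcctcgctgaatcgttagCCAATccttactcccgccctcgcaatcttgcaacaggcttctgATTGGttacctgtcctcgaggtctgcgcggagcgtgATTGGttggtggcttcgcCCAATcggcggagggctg

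The Cks1b window holds a pair of CHR matches and the Cks2 window none, while each of them holds 4 CCAAT boxes. Cdc20, Cdk1 and Kif23 each hold at least 1 match to both motifs. Their levels in EoE are given below, and a relation between these matches and the levels was not tested.

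The libraries differed in ways that bear on every value. Each condition was deposited as 1500 cells, with a median of 990 UMIs per cell in controls, 138 in EoE and 3099.5 in ESCC. Within the limits the study states, 250 to 3500 genes and 100 to 9500 UMIs per cell, lay 1500 control cells, 1494 ESCC cells and 144 EoE cells (9.60%). After cells called non-epithelial by markers were left out, 1493, 1471 and 143 cells remained, and these are the cells within limits below. Each control and ESCC mouse had 2 libraries and each EoE mouse had 1. The 2 libraries of a mouse shared 4 to 52 barcodes, 10.9% to 20.6% of the smaller library, against 0 to 4 in pairs of libraries from other mice. Ribosomal protein genes took 5.93% to 9.23% of UMIs in controls, 2.24% to 2.67% in EoE and 16.3% to 19.7% in ESCC. Basal markers took 1.16% to 1.84%, 0.160% to 0.288% and 1.78% to 2.82%, and 10 of the 143 EoE cells within limits were Krt5-rich, while suprabasal markers took 2.82% to 5.22% of UMIs in controls, 9.81% to 15.7% in EoE and 0.657% to 1.56% in ESCC. The part of this difference in the results below was not tested. No eosinophil or mast cell marker (5 genes) had a UMI. Immune markers (14 genes) took at most 0.00295% of UMIs in controls and 0.0156% in ESCC and had no UMI in EoE. The defining marker Ptprc was at 0 in controls and EoE. Over all deposited EoE cells 8 immune genes, Ptprc included, had 13 UMIs, 1 of 5 endothelial genes had 103, basal markers took 0.422% to 0.637%, suprabasal markers 5.06% to 7.14%, ribosomal protein genes 3.45% to 4.08% and the nuclear RNA Malat1 0.0435% to 0.0974%, against 0.0301% to 0.0405% for Malat1 in controls.

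In untreated mice the mitosis genes were concentrated in Krt5-rich cells. A cell was called Krt5-rich with at least 2 Krt5 UMIs that made up at least 0.2% of its UMIs. Such cells were 69.8% ± 8.33 (SD, n = 6) of control cells and held 96.1% ± 2.17 of the UMIs of the 39 genes. The summed level of the 39 genes, in UMIs per 1000000 UMIs (CPM), was 6894 ± 1244 in Krt5-rich control cells and 466 ± 179 in the other control cells, and the lowest mouse of the first, at 5518, lay far above the highest of the second, at 824. These levels are sums over cells, so fewer dividing cells and less of these RNAs per dividing cell cannot be told apart in them.

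Over all cells within limits the controls lay close together. The summed level ran from 4108 to 4759 CPM with a median of 4567 (mean 4475 ± 270, n = 6), and young and old controls overlapped, at 4536 ± 310 and 4414 ± 273 (n = 3 each). None of the 39 genes passed an adjusted p of 0.05 between old and young controls in edgeR's quasi-likelihood test, where 0.0318% of the 12587 genes tested were called higher with age and 0.0238% lower. DESeq2 called none either, and 1 of the 39 had an unadjusted p under 0.05 in edgeR, the kinetochore gene Ndc80 (log2 fold change 1.39 ± 0.57 SE).

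ESCC mice spread more widely. Their summed levels were 4935 CPM in 8M, 3523 in 17F and 3264 in 17M (mean 3907 ± 900, n = 3), so 8M lay above every control and the other two below every control. With library sizes scaled by TMM, a method that trims the genes that differ most, the means were 5067 ± 1238 in ESCC and 5023 ± 407 in controls, and the order of the 2 groups turned. The EoE mice lay at 1350, 2529, 1281 and 3452 CPM, all below the lowest control, but these values rest on 43, 106, 8 and 62 UMIs. Over all deposited cells they were 2740, 2815, 2664 and 3434 CPM (mean 2913 ± 353, n = 4), again without overlap with controls, which ran from 4108 to 4733. Within limits, EoE cells that were not Krt5-rich lay higher than such control cells, at 1926 ± 735 CPM (185 UMIs) against 466 ± 179. In cells with more Krtdap than Krt5 the levels were 475 ± 395 in EoE (23 UMIs) and 741 ± 620 in controls. The Krt5-rich call asks for 2 Krt5 UMIs and so depends on depth, whose part was not tested.

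**Figure D1:**
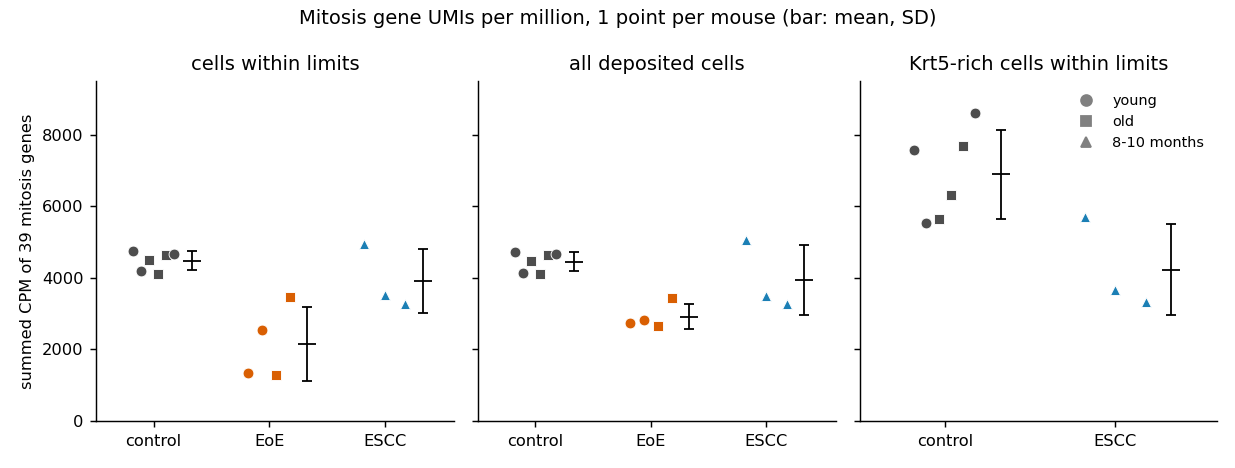
Summed CPM of the 39 mitosis genes (vertical axis) per mouse in controls, EoE and ESCC, over the cells within limits, all deposited cells and the Krt5-rich cells within limits (control and ESCC). Each point is a mouse, with its shape giving the age class, and bars are mean ± SD. The young class holds controls of 3 to 4 months and EoE mice of 6 to 8 weeks. The 6 controls lie between 4108 and 4759 over cells within limits, 8M lies above them and 17F and 17M below them, and in Krt5-rich cells the control mean is 6894 against 4226 in ESCC.

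The first question for ESCC was whether single mitosis genes differed from controls over all cells. Of the 39 genes, 5 were higher (12.8%) and 3 lower (7.69%), while 13% and 8.89% of all 12587 genes were called higher and lower, so the shares were near the background. The members called were not the same kind throughout. Of the 3 genes of the chromosomal passenger complex, which corrects chromosome attachment and guides cleavage, Birc5 and Incenp were higher. Of the 9 Cdk1 regulators, Ccnb1 and Cks1b were higher and Cks2 lower. The condensin subunit Ncapd2 was higher, 2 of 10 spindle genes, Ckap2l and Hmmr, were lower, and no gene of the checkpoint, kinetochore or cytokinesis groups was called.

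Birc5, which encodes survivin, had 180, 106 and 117 CPM in 8M, 17F and 17M. In controls it ran from 39 to 90.1 CPM with a median of 58.8. The groups did not overlap, and the log2 fold change was 1.32 ± 0.22 (SE, edgeR adjusted p = 3.91e-06). Ncapd2, which helps to compact chromosomes, had 79.4, 69.1 and 68.9 CPM in ESCC against 9.01 to 54.0 in controls (median 34.1), also without overlap (log2 fold change 1.22 ± 0.26, edgeR adjusted p = 0.000224).

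Ccnb1, the cyclin that activates Cdk1 at mitotic entry, had 151, 74.3 and 81.3 CPM in ESCC against 27.0 to 103 in controls (median 56.8). The groups overlapped, since 17F and 17M lay below the highest control, and the log2 fold change was 0.85 ± 0.24 (edgeR adjusted p = 0.00647). Without 8M it was 0.49 with an adjusted p of 0.0982. Of the 31-base words in the last 300 bases of Ccnb1 transcripts, 27.9% also occur in the pseudogene Ccnb1-ps, so some of its reads may be shared. Cdk1 itself had 126, 119 and 113 CPM against 67.8 to 156 in controls and did not pass (log2 fold change 0.44 ± 0.21, edgeR adjusted p = 0.136).

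Cks1b and Cks2 encode closely related small subunits that bind the kinase, and they moved in opposite directions. Cks1b had 204, 248 and 261 CPM in ESCC and 110 to 201 in controls (median 152), with no overlap (log2 fold change 0.83 ± 0.20, edgeR adjusted p = 0.00127). Cks2 had 25.9, 20.2 and 12.8 CPM in ESCC and 32.3 to 72.0 in controls (median 40.6), again with no overlap but below (log2 fold change -1.01 ± 0.31, edgeR adjusted p = 0.0113). The ratio of Cks1b to Cks2 UMIs was 7.88 in 8M, 12.3 in 17F and 20.3 in 17M, above each of the 6 controls, which ran from 1.88 to 5.23. Of the 31-base words at the Cks1b transcript ends, 24.8% also occur in its retrocopy Cks1brt, and none of those at the Cks2 ends occur in another counted gene.

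Ckap2l and Hmmr, both proteins of the spindle, were lower. Ckap2l had 49.4, 24.2 and 22.3 CPM in ESCC against 44.2 to 81.9 in controls, and 8M overlapped the lowest control (log2 fold change -0.90 ± 0.27, edgeR adjusted p = 0.00887). Hmmr had 69.7, 47.2 and 40.9 CPM against 71.0 to 153 and did not overlap (log2 fold change -0.82 ± 0.23, edgeR adjusted p = 0.00546). Both lost their call without 17F or without 17M, and so did Cks2 without 17M. The balance over the 39 genes changed with the mouse left out, with 4 higher and 9 lower without 8M, 5 and 1 without 17F, and 6 and none without 17M. The widely used proliferation markers Top2a and Mki67, which encode the enzyme that untangles DNA and a protein that coats mitotic chromosomes, had 497, 325 and 277 CPM and 247, 188 and 115 CPM in ESCC. Controls ran from 279 to 461 and from 137 to 208, so both overlapped and neither passed (edgeR adjusted p = 0.403 and 0.342).

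The comparison within Krt5-rich cells asked whether the levels differed among cells that carry the basal keratin. Krt5-rich cells were 87.1%, 96.2% and 98.0% of the cells of 8M, 17F and 17M, against 62.2% to 81.4% in controls. The sets were not alike in the 2 groups. At 500 UMIs per cell, 80.7% of ESCC cells with no mitosis gene had more Krt5 than Krtdap, against 50.4% of such control cells. The part of such cells in the levels below was not tested. Within them the summed level was 5689, 3669 and 3321 CPM in ESCC (mean 4226 ± 1278, n = 3). Controls ran from 5518 to 8594 with a median of 6953, so 17F and 17M lay below every control and 8M within their range.

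Of the 39 genes, 15 were lower (38.5%) and 2 higher (5.13%) in Krt5-rich cells of ESCC, where 5.87% and 11.1% of 12340 genes were called lower and higher. The median log2 fold change was -0.54 over the 39 genes and 0.17 over all genes. Among the better expressed genes kept by edgeR's filterByExpr, 17 of 35 mitosis genes were lower and 1 higher, where 13.9% and 16.1% of 5055 genes were called. The count depended on which ESCC mice were in the fit. Without 17F 1 gene was lower and 1 higher, without 17M 10 and 2, and without 8M 24 and 2. With DESeq2 14 were lower and none higher. Ribosomal protein genes took more of the UMIs in ESCC, as given above, and their part in these shares was not tested.

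By role, 4 of 5 kinetochore genes were lower. These were Cenpa, the histone that marks the centromere, Cenpe, the motor that carries chromosomes to the spindle middle, Cenpf and Nuf2, whose log2 fold changes ran from -0.68 to -1.11. Both cytokinesis genes, Ect2 and Anln, were lower (-0.68 and -0.70), as were the checkpoint kinase Bub1b (-1.0) and Cdc20 (-0.76). In the spindle group Kif23, Nusap1, Hmmr and Ckap2l were lower (-0.75 to -1.38), and in the remaining groups Cks2 (-1.36), the kinase Aurkb (-0.88) and the condensin core subunit Smc4 (-0.76).

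Birc5 (0.88 ± 0.23) and Ncapd2 (0.80 ± 0.27) were also higher in Krt5-rich cells (edgeR adjusted p = 0.00665 and 0.0390). The call of Ncapd2 was lost under most alternatives, and that of Birc5 with DESeq2 and without 8M. Ckap2l had 55.6, 25.3 and 22.4 CPM in Krt5-rich cells of ESCC against 59.8 to 156 in controls, below every control. Hmmr had 80.6, 49.4 and 41.3 CPM against 116 to 264, and Cks2 30.7, 21.1 and 13.1 against 49.3 to 92.4, also below every control. Cdc20 had 117, 87.9 and 87.0 CPM against 115 to 276, where 8M alone reached the lowest control. Cdk1, Plk1, Top2a, Mki67 and Ckap2 had log2 fold changes between -0.14 and 0.00 in these cells and did not pass.

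**Figure D2:**
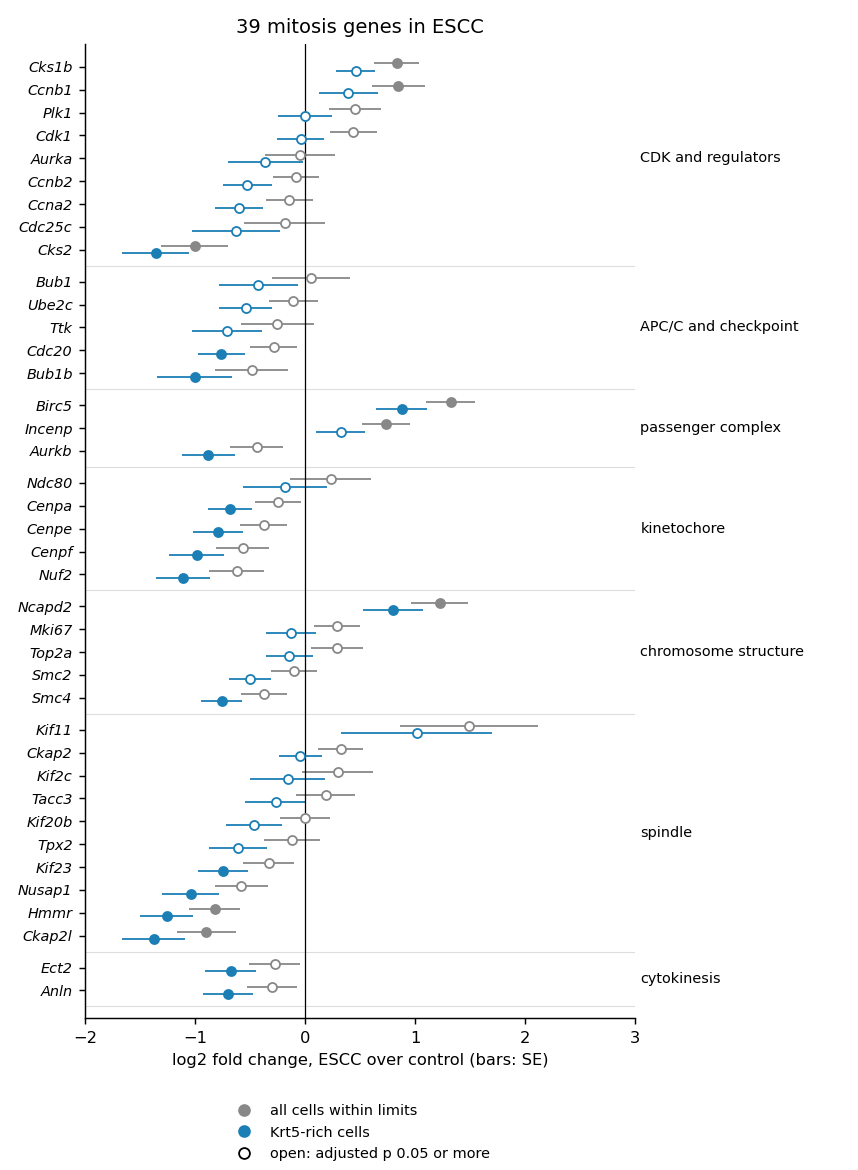
Log2 fold change of each of the 39 mitosis genes in ESCC over control (horizontal axis), by role, over all cells within limits (grey) and within Krt5-rich cells (blue). Bars are standard errors and filled points have an edgeR adjusted p under 0.05. In Krt5-rich cells 15 genes are lower and 2, Birc5 and Ncapd2, are higher, while over all cells 5 are higher and 3 lower.

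Genes of neighboring programs, from lists of 66 other mitosis genes and 26 DNA replication genes of which 65 and 25 were tested, were counted in ESCC in the same way. Over all cells 13 replication genes were higher and none lower, where 13% and 8.89% of all genes were called, led by the chromatin assembly subunit Chaf1b (2.46 ± 0.66, on 4 control UMIs) and the replicative helicase subunit Mcm7 (2.21 ± 0.34). In Krt5-rich cells 8 were higher and none lower, where 11.1% and 5.87% of all genes were called. Among genes kept by filterByExpr, however, 6 of 16 were higher and 3 lower (Pola1, Slbp and Dut), where the shares were 16.1% and 13.9%. Of the other mitosis genes 9 were higher and 3 lower over all cells, led by Cenpw (2.19 ± 0.32) and Mybl2 (1.97 ± 0.70, on 4 control UMIs) upward and Prc1 (-1.05 ± 0.24) and Lmnb1 (-0.79 ± 0.22) downward, with the count upward near the share of all genes. In Krt5-rich cells 2 were higher and 4 lower. The difference between the lists was not tested.

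Co-detection within cells was compared after each cell had been thinned to 500 UMIs, which left out 35 control cells, 69 EoE cells and no ESCC cell. Without thinning, 26.2% ± 1.85 of control cells and 47.3% ± 1.15 of ESCC cells held UMIs of at least 3 mitosis genes. At 500 UMIs the shares were 20.2% ± 1.43 (SD, n = 6) in controls and 21.8% ± 1.74 (n = 3) in ESCC, and the groups overlapped. The order changed with the number of UMIs kept, with controls above at 250 UMIs and below at 1000. The cells changed as well, since 735 control cells were left at 1000 UMIs against 1458 at 500, while ESCC kept 1471. Among cells Krt5-rich at 500 UMIs, the share was 27.9% ± 4.97 in controls (21.6% to 33.5%). In ESCC it was 23.1% ± 2.76 (21.1% to 26.2%), and the groups overlapped. In cells with more Krtdap than Krt5, which should hold few dividing cells, the shares were 3.34% ± 3.98 and 3.78% ± 3.28, so the shares over all cells stood above this background.

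Cells that carried many mitosis genes at once differed more, at a cutoff of 10 genes that was not among those planned. At the planned cutoffs of 3 and 2 genes the groups overlapped at 500 UMIs. At 500 UMIs, 91 of 1458 control cells (6.24%) and 15 of 1471 ESCC cells (1.02%) held UMIs of 10 or more of the 39 genes. Per mouse the share was 3.81% to 8.48% in controls, with a median of 6.88%, and 3.45%, 0.602% and 0.153% in 8M, 17F and 17M, without overlap. The exact 95% interval of 8M, 1.73% to 6.09%, overlapped those of controls. Among cells with at least 3 mitosis genes, the mean number of their UMIs per cell was 9.69 ± 1.12 of 500 in controls and 6.12 ± 1.06 in ESCC, with 8.66 in the lowest control and 7.21 in the highest ESCC mouse. Controls were also above ESCC at 250 UMIs (6.02 and 4.36) and at 1000 UMIs (17.2 and 9.74), where 735 control cells were left. These counts are relative to a fixed number of UMIs, and in the unthinned counts ESCC cells within limits held 10.5 to 19.1 mitosis UMIs each against 4.30 to 7.14 in controls.

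**Figure D3:**
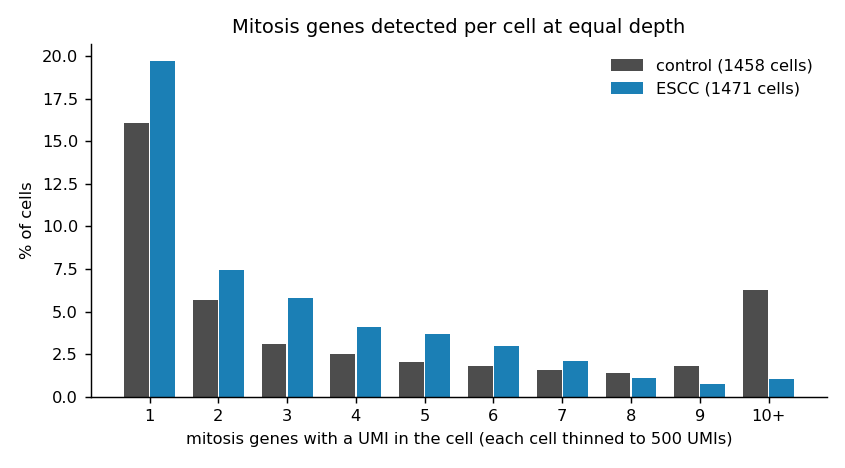
Share of cells (vertical axis, %) by the number of mitosis genes with a UMI (horizontal axis) after thinning each cell to 500 UMIs, in 1458 control cells and 1471 ESCC cells, pooled over the mice of each group. Cells with none (57.8% of control and 51.4% of ESCC cells) are not drawn. ESCC has more cells with 1 to 7 genes and controls more with 8 or more, at 10 and over 6.24% against 1.02%.

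The genes came together in the same cells in both groups. Over the 28 pairs among the 8 genes with the highest mean CPM (Smc4, Top2a, Cenpf, Ube2c, Mki67, Cenpa, Kif23 and Anln), cells with both genes were 2.85 to 4.80 times as many as independence within each mouse gives in controls (median 3.89) and 1.97 to 5.58 times in ESCC (median 2.72). The highest pair in ESCC was Cenpf with Ube2c, which came together in 41 cells where 7.34 were expected. In controls it was Cenpf with Anln, in 48 cells where 9.99 were expected. Within Krt5-rich cells the medians were 2.74 and 2.67. These ratios describe the cells of a few mice, which share libraries, and carry no test.

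Cells with at least 2 mitosis genes looked basal by their keratins. At 500 UMIs, 87.6% ± 7.67 of them in controls had more Krt5 than Krtdap UMIs, against 50.4% ± 12.7 of cells with none (n = 6 mice). In ESCC the shares were 92.8% ± 4.33 and 80.7% ± 7.93 (n = 3 mice). Krtdap averaged 0.443 ± 0.468 UMIs in control cells with at least 2 mitosis genes and 3.65 ± 1.11 in cells with none. In ESCC it averaged 0.525 ± 0.226 and 1.39 ± 0.31.

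In EoE the question was which mitosis genes remained detectable at the depth of these libraries. Over the 143 cells within limits, 21 of the 39 genes were lower than in controls (53.8%) and none higher, where 15% of 12587 genes were called lower and 3.44% higher. The median log2 fold change was -1.72 over the 39 genes and -1.58 over all genes, and -1.32 over the 39 with the 7 genes that had no UMI in EoE set at their bounds. Among genes kept by filterByExpr 13 of 34 mitosis genes were lower (38.2%), where 25.1% of 5866 genes were called lower and 9.44% higher. Without EoE mouse 9 the count over all 39 genes was 11. Cks1b, Cdc20 and Aurkb had no UMI among 97975. Against a floor of 3 UMIs over the EoE group they were at least 4.94-fold, 4.10-fold and 2.47-fold lower than in controls (edgeR adjusted p = 2.89e-06, 1.80e-05 and 0.000922). Ccnb2 and Cdk1 had 1 UMI each, with ratios of EoE to control of 0.0778 (95% counting interval 0.00196 to 0.438) and 0.104 (0.00261 to 0.585). The EoE and ESCC comparisons use the same controls.

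All deposited EoE cells gave 297425 UMIs and 866 mitosis gene UMIs, and the genes split. Of the 39, 19 were lower (48.7%) and 1 higher (2.56%), where 19.1% of 12954 genes were called lower and 9.39% higher. Among genes kept by filterByExpr 15 of 34 were lower and 1 higher, where 29.3% and 21.4% of 5971 genes were called. The median log2 fold change was -1.15 over the 39 genes and -0.66 over all genes. Of the 9 Cdk1 regulators 8 were lower. In the group of the anaphase promoting complex and the checkpoint 2 of 5 were lower, Cdc20 and Ube2c, while Bub1, Bub1b and Ttk did not pass. Also lower were 1 of 3 passenger genes, 1 of 5 kinetochore genes, 1 of 5 chromosome structure genes, 5 of 10 spindle genes and 1 of 2 cytokinesis genes.

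Cdc20, which starts anaphase, had no UMI in any of the 4 EoE mice, while controls ran from 79.5 to 145 CPM with a median of 144. It was at least 12.4-fold lower (edgeR adjusted p = 4.37e-09). It overlaps Elovl1 on the opposite strand, and whether counting used strand is not given in the sources used here. Cks2 also had no UMI, against 32.1 to 71.2 CPM in controls, and was at least 4.25-fold lower (edgeR adjusted p = 0.000125).

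Cdk1 had 2 UMIs in EoE mouse 9 (23.3 CPM) and none in mice 10, 11 and 12, against 67.8 to 156 CPM in controls. The ratio of EoE to control was 0.0684 with a 95% counting interval of 0.00822 to 0.251 (edgeR adjusted p = 1.99e-06). Aurkb likewise had 2 UMIs, in mouse 9 alone, and the cytokinesis gene Ect2 had 2 in all, with ratios of 0.0892 and 0.0906 to control. Ccnb1 had 23.3, 12.8, 0 and 27.8 CPM, and mouse 12 alone lay above the lowest control of 26.7 (log2 fold change -2.02 ± 0.60, edgeR adjusted p = 0.00805). Ube2c, which loads ubiquitin for the anaphase promoting complex, had 152, 89.6, 146 and 139 CPM against 125 to 388 (log2 fold change -1.34 ± 0.29, edgeR adjusted p = 0.000294), and overlapped the lowest control.

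Other mitosis genes did not pass over all deposited cells, though some were lower within limits. Top2a had 175, 371, 292 and 403 CPM in EoE and 276 to 461 in controls (log2 fold change -0.26 ± 0.24, 95% interval -0.74 to 0.22, edgeR adjusted p = 0.480). Mki67 had 93.3, 128, 130 and 209 CPM against 136 to 208 (-0.40 ± 0.29, edgeR adjusted p = 0.337). Within limits Top2a had 31.4, 286, 0 and 390 CPM, on 20 UMIs, and was called lower (-1.27 ± 0.39, edgeR adjusted p = 0.0144). So were Smc2, Smc4, Cenpa and Cenpe, of which Smc2 was also lower over all deposited cells (-0.86 ± 0.29, edgeR adjusted p = 0.0216). Mki67 did not pass within limits (-1.10 ± 0.44, edgeR adjusted p = 0.0712). Over all deposited cells mouse 9 lay below every control for Top2a, and mice 9, 10 and 11 did so for Mki67. Anln, Birc5, Incenp and Cenpf were also within 0.35 of controls on the log2 scale and did not pass.

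Kif23, the kinesin that bundles the central spindle between separating chromosomes, was the 1 gene of the 39 that was higher. It had 525, 409, 357 and 487 CPM in EoE (45, 32, 22 and 35 UMIs), above every control, which ran from 91.4 to 222 with a median of 111. The log2 fold change was 1.76 ± 0.23 (edgeR adjusted p = 2.58e-08). Over the cells within limits it had 157, 382, 160 and 167 CPM on 25 UMIs, overlapped controls and did not pass (edgeR adjusted p = 0.380). ESCC mice had 111, 65.9 and 89.2 CPM over all deposited cells.

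**Figure D4:**
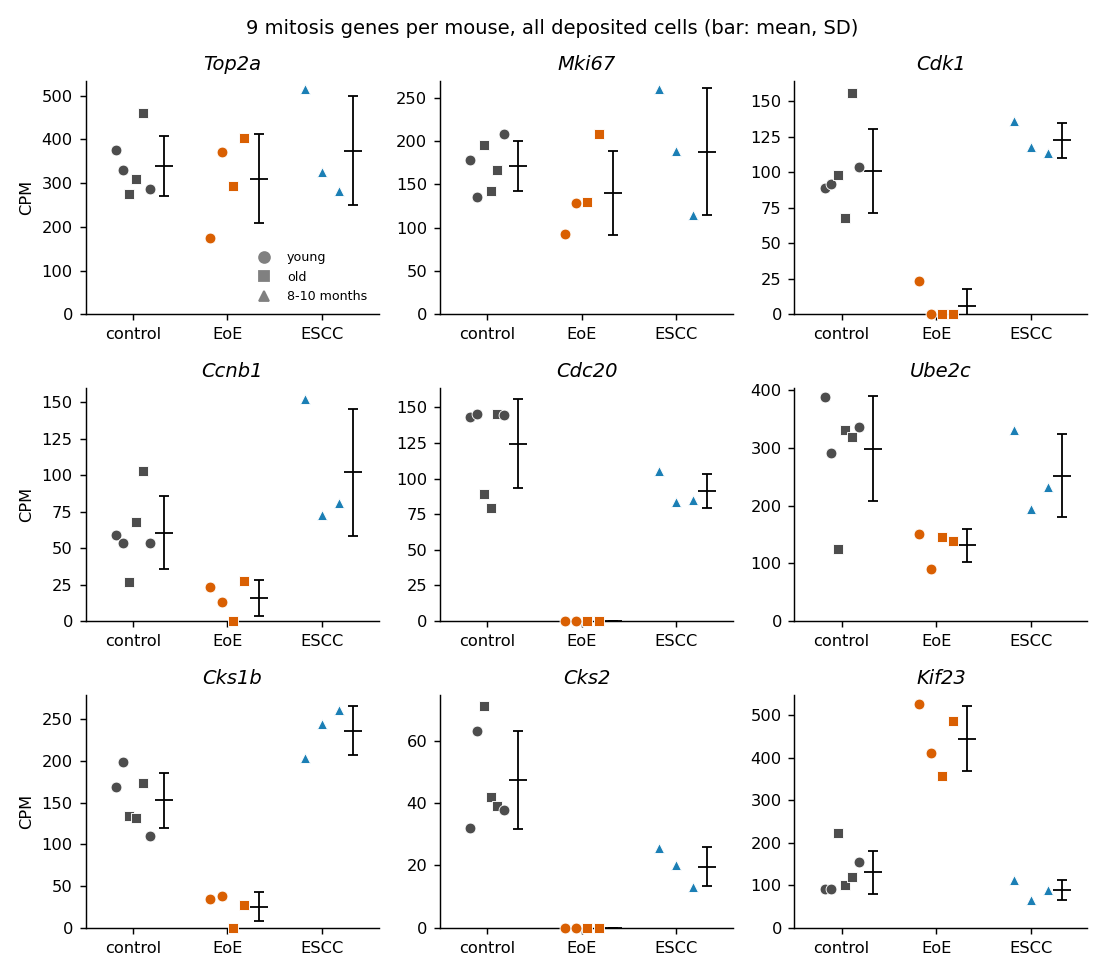
CPM over all deposited cells (vertical axis) of 9 mitosis genes per mouse in controls, EoE and ESCC, with 1 point per mouse, its shape giving the age class, and bars for mean ± SD. The young class holds controls of 3 to 4 months and EoE mice of 6 to 8 weeks. In EoE Cdc20 and Cks2 lie at 0 in all 4 mice, Cdk1 at 0 in 3, Top2a and Mki67 overlap controls, and Kif23 above every control and ESCC mouse. In ESCC Cks1b lies above and Cks2 below every control.

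Transcript length moved with these differences. Over the 39 genes the log2 fold change in EoE, all deposited cells, had a Spearman correlation of 0.43 with the length of the longest annotated transcript and of 0.53 with the coding length. Over the 3221 genes above a log2 CPM of 6 with a known length the correlations were 0.34 and 0.23. The points share the same libraries, so no p is given. The median log2 fold change of all those genes rose over 5 length classes from -1.37 in the shortest, up to 1599 bases, to 0.16 in the longest, from 5607 bases. The mitosis genes had a median of -2.40 in the shortest class (4 genes) and of -0.40 in the longest (3 genes, Cenpf, Mki67 and Cenpe), below the median of all genes in each. In ESCC over the cells within limits the correlation with transcript length was 0.03 over the 39 genes. The part of transcript length in the EoE result was not tested.

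**Figure D5:**
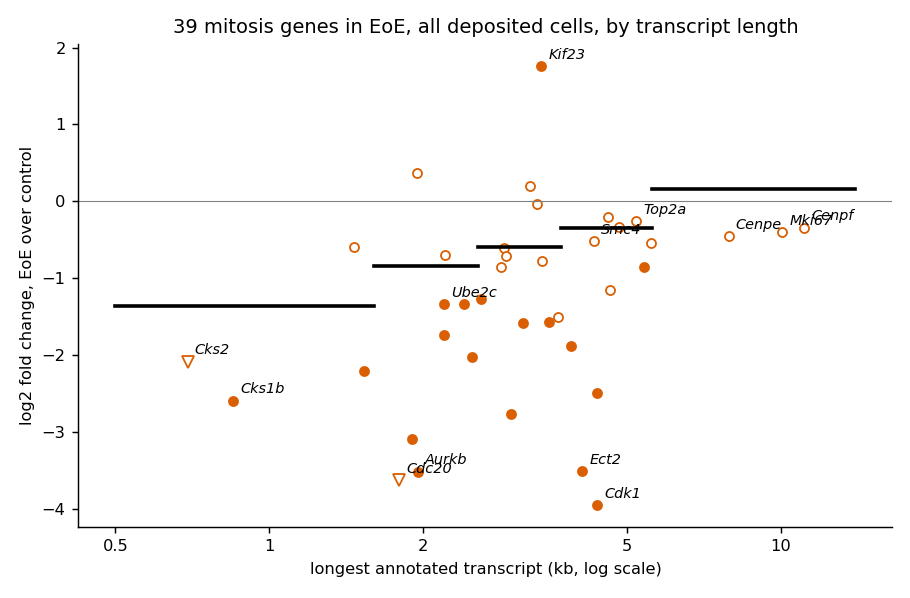
Log2 fold change in EoE over control, all deposited cells (vertical axis), against the length of the longest annotated transcript in kb (horizontal log axis) for the 39 mitosis genes. Filled circles have an edgeR adjusted p under 0.05, triangles are the upper limits of the 2 genes without a UMI in EoE, and black lines are the medians of all well expressed genes in each of 5 length classes, from -1.37 to 0.16, drawn from 0.5 to 14 kb. Kif23 stands at 1.76, and Cenpe, Mki67 and Cenpf, the longest, lie between -0.45 and -0.34.

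Few EoE cells could be compared cell by cell. Of 74 EoE cells with at least 500 UMIs, 5 held at least 3 mitosis genes (8.34% ± 4.61 per mouse, n = 4) and none held 10, which allows up to 15.4%, 11.6%, 41% and 21.8% per mouse by the exact 95% interval. Thinned to 250 UMIs, 19 of 143 EoE cells held at least 3 (10.6% ± 8.58 per mouse). The EoE mice then ran from 0% to 17.6% and overlapped controls, at 10.0% to 16.6%. Over all deposited EoE cells, 161 had UMIs of at least 2 mitosis genes. Of these, 28.8% ± 7.54 had a Krt5 UMI and 2.88% ± 4.04 a Krtdap UMI, against 13.8% ± 1.47 and 19.2% ± 9.16 of the 1173 cells with none (n = 4 mice). These cells were not thinned, so depth can differ between the sets, and the difference was not tested. Krt5-rich cells of EoE were too few within limits for a test. Over all deposited cells mice 9 and 10 had 14 and 15 such cells, and 2 of the 39 genes were lower (5.13%), Ube2c and Top2a, where 3% of 12382 genes were called lower and 0.315% higher. The summed level in the 39 Krt5-rich cells of the 4 mice was 4442 to 10301 CPM on 61 UMIs, against 5518 to 8594 in controls.

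EoE was also compared with ESCC. Over the cells within limits 18 of the 39 genes were lower in EoE (46.2%) and none higher, where 18.8% of 12587 genes were called lower and 4.56% higher. Of the 9 Cdk1 regulators 7 were lower, of the 3 passenger genes all 3, and of the 5 chromosome structure genes 4. In the group of the anaphase promoting complex and the checkpoint 2 of 5 were lower, Cdc20 and Ube2c, and of the 5 kinetochore genes none. With no UMI in EoE, Cks1b, Cdc20 and Aurkb were at least 7.92-fold, 2.91-fold and 1.54-fold lower than in ESCC. Over all deposited cells 16 were lower and Kif23 was higher (log2 fold change 2.06 ± 0.25, edgeR adjusted p = 2.99e-09), where 22.9% of 12954 genes were called lower and 10.4% higher. The median was then -1.03 over the 39 genes and -1.03 over all genes.

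The neighboring lists in EoE, over all deposited cells, gave 14 of 65 other mitosis genes lower and 2 higher. Of 25 replication genes 6 were lower and 1 higher. Of all genes 19.1% were called lower and 9.39% higher, so the counts downward were near that share. Among genes kept by filterByExpr 5 of 34 other mitosis genes were lower and 2 higher, and 5 of 17 replication genes were lower and none higher. There 29.3% of all genes were called lower and 21.4% higher. Among the other mitosis genes called were Kifc1, a minus-end spindle kinesin (24 UMIs in EoE and 8 in controls, log2 fold change 3.95 ± 0.57), and Wee1, which inhibits Cdk1 (1.24 ± 0.33), upward, and downward Cdc23 and Spag5, without a UMI in EoE and at least 2.21-fold and 2.15-fold lower, and Spc25 and Pttg1, with 1 UMI each in EoE against 83 and 81 in controls. Among replication genes Uhrf1 was higher (2.25 ± 0.66, on 11 and 12 UMIs) and Dut lower (-2.72 ± 0.53), while Mcm7 had no UMI in EoE and was at least 1.30-fold lower.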

How the data were processed

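Esophageal epithelium of 13 mice was profiled by inDrop in 22 libraries. The authors extracted barcodes with UMI-tools 1.0.0, aligned to GRCm38 with STAR 2.7.3, counted with featureCounts and deposited whole-number UMI counts per gene and cell, after drawing 1500 cells per condition. The strand setting is not given in the sources used here. Mouse identity was read from the library titles, and the libraries of a mouse were summed.

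Counts per mouse were tested with edgeR 4.0.16 (R 4.3.3), quasi-likelihood, TMM, fitted to all 13 mice, and p-values were adjusted by Benjamini-Hochberg across every gene with a UMI in more than 3 cells. Standard errors are the log2 fold change over the root of F. A call is an adjusted p under 0.05. The script was tested on simulated data. In EoE against control (12579 genes) it recovered 2% of 2-fold, 22% of 4-fold and 60% of 8-fold changes, and in ESCC against control (12578 genes) 22%, 92% and 100%, so a gene that did not pass is not shown to be unchanged. Mice with under 10 Krt5-rich cells were left out of that fit. Summed levels and co-detection carry no p. Intervals and floors of 3 UMIs cover counting error only. p-values measure the spread between mice, as estimated with information shared across genes and groups. A gene without a UMI in any mouse of a group shows no spread in that group. Control mice had 111043 to 427752 UMIs within limits, EoE mice 6245 to 41909 and ESCC mice 1234682 to 2103543. Doublets were called with Scrublet (scanpy 1.11.5) and left out as an alternative only. DESeq2 1.42.0 was an alternative test.

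The mitosis genes and the other lists were chosen with earlier results of these data known. Values in every mouse are given for Top2a, Mki67, Cdk1, Ccnb1, Cdc20 and Ube2c and, among called genes, for the 3 that rose most and the 3 that fell most. For the other lists the 2 that rose most and the 2 that fell most are named. Genes were ranked by fitted folds, which are no bounds where a group had no UMI. Incenp, Ect2, Cks1b in ESCC, Anln and the other genes named beyond this rule were chosen after their values were seen. Lengths are from GENCODE M21 and promoters from RefSeq, both GRCm38.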

Additional observations from a re-analysis of the deposited data

Results flagged for a closer look

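Of 48 groups of mice examined for 1 mouse far from the others, 4 were singled out by Dixon's criterion, where chance gives about 1 in 20. Among controls Ube2c was lowest in old mouse 3, at 126 CPM within limits. Over all deposited EoE cells Cdk1 and Aurkb each stood at 23.3 CPM in mouse 9, on 2 UMIs, with no UMI in the other mice, and Ncapd2 stood at 32.5 CPM in mouse 11, on 2 UMIs against 1 in each other mouse.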

How the results depend on the processing

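No paired analysis was possible because the groups hold different mice that share no numbers in the labels. Of the settings tried, 141 values of counts, summed levels and shares stayed within the limits set for them and 21 moved, and of the refits of named genes none reversed, 282 stayed past the threshold and 23 did not. Among those that stayed were all refits of Cks1b, Cdc20 and Aurkb in EoE, 21 each against control and 18 each against ESCC. These genes had no UMI in EoE within limits, so their refits had little room to reverse. Ncapd2 in Krt5-rich cells of ESCC lost its call in 12 refits and kept it in 4. With filterByExpr 13 mitosis genes were called in EoE. Leaving out 1 mouse gave 6 to 13 calls in ESCC, 11 to 18 in EoE against control and 2 to 26 in Krt5-rich cells of ESCC. With TMM scaling the summed level was 5023 CPM in controls and 5067 in ESCC, and without Smc4 it was 3957 in controls. DESeq2 size factors moved the median log2 fold change of all genes in ESCC from 0.14 to 0.26 and that of the 39 genes from -0.11 to 0.01. The share of cells with at least 3 mitosis genes was 13.7% in controls, 11.8% in ESCC and 10.6% ± 8.58 in EoE at 250 UMIs. At 1000 UMIs it was 27.1% on 735 control cells, 32.1% on 1471 ESCC cells and, on 23 EoE cells, 0%. In Krt5-rich cells of controls and ESCC it was 19.9% and 12.2% at 250 UMIs. At 1000 UMIs it was 40.9% on 456 control cells and 34.0% on 1400 ESCC cells. With at least 2 genes asked for, it was 25.6% in controls and 29.2% in ESCC, and 35.0% and 30.7% in Krt5-rich cells. The causes were not tested. Keeping 1 cell per shared barcode, and both alternatives over all deposited EoE cells with filterByExpr or DESeq2, were chosen after seeing the data. The EoE values within limits rest on 219 mitosis gene UMIs.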
